A study of Homo sapiens with 10 samples.

Results

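The plasma membrane repair genes examined here are 34 listed genes of the annexin, S100, ESCRT, ferlin, EHD and lysosome exocytosis families, out of 60448 genes in the count table. They were chosen by symbol, through the Ensembl identifier of each gene, and all 34 were found in the table. RNA sequencing compared untreated confluent monolayers of 2 human endothelial cell lines, with 5 biological replicates of each. EA.hy926 arose by fusing umbilical vein endothelial cells to A549, a line from a lung carcinoma. HMEC-1 cells come from the microvessels of skin and were immortalized with the SV40 large T antigen. Both lines are labelled wild type, and each is a single line, so the replicates are cultures and not donors. EA.hy926 cells were kept in Advanced DMEM with 5% serum, whereas HMEC-1 cells were kept in MCDB 131 with 10% serum, epidermal growth factor at 10 ng/mL and hydrocortisone at 1 µg/mL. Effects of the line and of its medium therefore cannot be told apart. The study exposed these lines to electric pulses that permeabilize the plasma membrane, and the RNA describes the cells without any such treatment.

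Cells close a torn plasma membrane within seconds to minutes when Ca2+ flows in through the wound. Annexins bind the lipids at the wound edge in a Ca2+-dependent way, often together with small S100 proteins, and pull or cap the edge. ESCRT-III proteins polymerize into filaments that pinch off damaged membrane outwards, dysferlin and myoferlin drive fusion of vesicles with the wound, EHD proteins shape and recycle membrane, and lysosomes that fuse with the surface release acid sphingomyelinase, after which the wound can be taken up by endocytosis. Endothelial cells meet such wounds in life because flowing blood shears them.

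Sequencing gave 33391640 to 43877224 counts per library, and 3 counts corresponded to 0.0651 to 0.0904 CPM, the count scaled to a common library size. Libraries of the same line correlated with a Pearson r of at least 0.9949 in log2 CPM, against at most 0.8067 between the lines, and no replicates were alike within counting noise. Of 12 endothelial markers, PECAM1, a junctional adhesion molecule, and CDH5, the endothelial cadherin, were present in every library, at 1633 and 1268 CPM on average in EA.hy926 and 254 and 441 CPM in HMEC-1. The list had 9 genes higher and 2 lower in EA.hy926 by adjusted p, and its summed level was 4736 to 5395 CPM in EA.hy926 compared with 1756 to 1808 CPM in HMEC-1. The endothelial marker EMCN had at most 2 counts in the EA.hy926 libraries against 678 to 844 in HMEC-1. CLDN5 had at most 5 counts in EA.hy926 against 51 to 65 in HMEC-1. Epithelial markers, relevant because A549 is epithelial, had 8 of 12 genes tested, 5 higher and 3 lower in EA.hy926. They summed to 1350 to 1459 CPM in EA.hy926 compared with 453 to 514 CPM in HMEC-1, mostly from keratin genes. KRT7 was at 586 to 658 CPM in EA.hy926 against 294 to 345 CPM in HMEC-1, and KRT8 at 526 to 577 CPM against 17.9 to 20.4 CPM. KRT18 had a log2FC of 0.58 (adjusted p = 4.9e-12 from edgeR). The 3 lower genes were KRT19, CLDN4 and CLDN7. Their counts were 2 to 7, 12 to 26 and 4 to 12 in EA.hy926 against 109 to 165, 44 to 73 and 117 to 175 in HMEC-1. EPCAM reached only 25 to 40 counts in EA.hy926 against 4 to 22 in HMEC-1, and CDH1, ESRP1 and GRHL2 had 0 counts in every EA.hy926 library. EMCN, CLDN5, KRT7, KRT8, KRT19, CLDN4, CLDN7 and the epithelial genes at 0 in EA.hy926 were named after their values were seen. The part that these marker differences have in the results for the repair genes was not tested.

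Of the 34 repair genes, 31 had enough counts to be tested, and 28 of them (90.3%) differed between the lines at an adjusted p under 0.05, next to 85.8% of all 16310 genes tested. Among the tested repair genes, 15 (48.4%) were higher in EA.hy926, with a background of 42.6%, and 13 (41.9%) were lower, with a background of 43.3%. With library totals 14 (45.2%) were higher and 14 (45.2%) lower, where 37.0% of all genes were higher and 49.6% lower. A log2 fold change (log2FC) above 1 in size was added as a second threshold, and 6 genes passed both thresholds, or 19.4% against 35.5% of all genes. Of these, 4 (12.9%) were higher in EA.hy926 (EHD1, MYOF, DYSF and CHMP4B), where the background was 19.1%, and 2 (6.45%) were lower (ANXA6 and ANXA3), where it was 16.4%. The median size of the log2FC was 0.48 over the tested repair genes and 0.65 over all genes tested, and the median log2FC was 0.15 and -0.01. The CPM ranges of the lines did not overlap for 26 repair genes (83.9%), next to 77.4% of all genes. The repair genes thus differed about as often as other genes, and fewer of them passed the fold threshold than the background share. The size of that gap depended on the filter for low counts. With at least 10 counts in every library, 6 of 30 repair genes and 3255 of 13107 genes passed both thresholds.

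The 3 members that were not tested were ANXA8, CHMP4C and TRIM72. None of them had more than 3 counts in any library. A positive log2FC means a higher level in EA.hy926 throughout, and adjusted p-values of single genes come from the edgeR quasi-likelihood test. RNA of whole cultures was measured, so fewer cells with a transcript and less of it in each cell cannot be told apart.

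**Figure D1:**
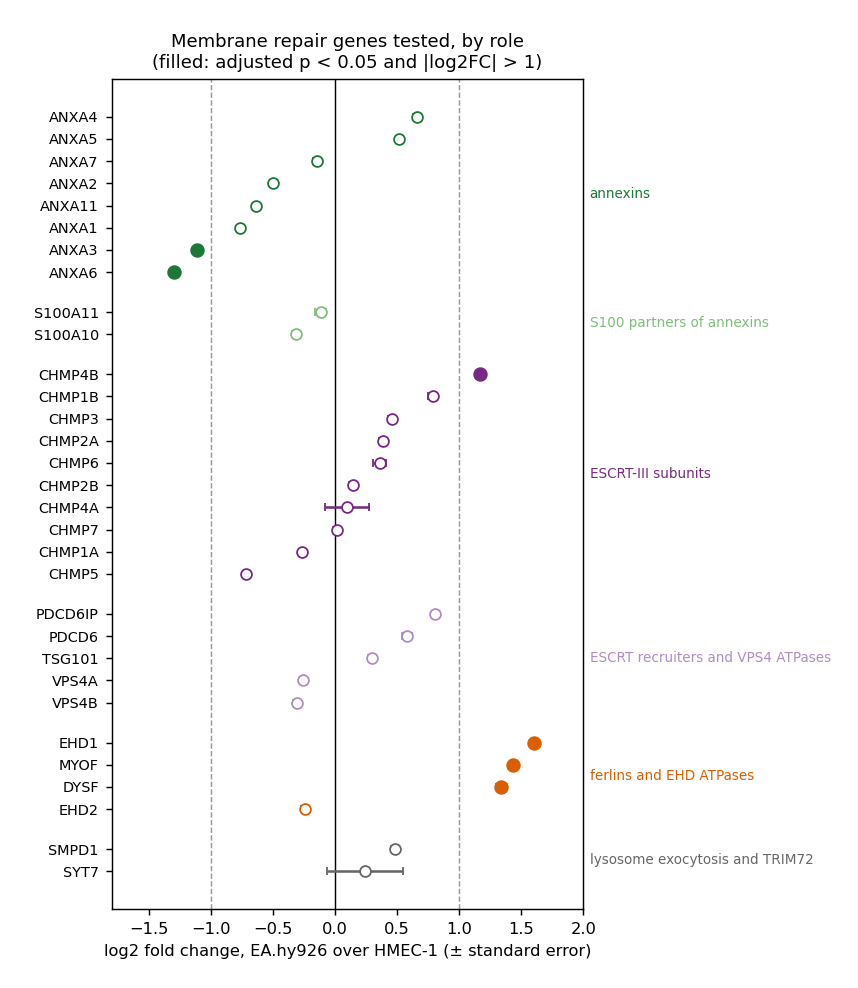
Log2 fold change (EA.hy926 over HMEC-1, horizontal axis) of the 31 tested repair genes, grouped by role, with bars of 1 standard error and filled points for genes past both thresholds. Of the 6 filled points, 3 are ferlin and EHD genes between 1.34 and 1.60, CHMP4B lies at 1.17, and ANXA3 and ANXA6 lie at -1.11 and -1.29.

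Ferlin and EHD genes held 3 of the 6 genes past both thresholds, or 75% of the 4 tested, next to 35.5% of all genes. All 4 members of the group differed in adjusted p, as 85.8% of all genes did. EHD1, MYOF and DYSF were higher and EHD2 lower in EA.hy926, where 42.6% and 43.3% of all genes were. The summed level of the group was 2072 to 2153 CPM in EA.hy926 compared with 973 to 1033 CPM in HMEC-1. EHD1 (chr11:64851642-64888296, minus strand, GRCh38), an ATPase of endocytic recycling that tubulates membrane, had 361, 370.5, 375, 385 and 387 CPM in the 5 EA.hy926 libraries. In HMEC-1 it had 128, 121, 126, 127 and 118 CPM. Every EA.hy926 library lay far above every HMEC-1 library, a 3.03-fold difference (log2FC 1.60, SE 0.028, adjusted p = 5.6e-22 from edgeR). This was the member with the largest difference, and 76.9% of all genes tested differed by less.

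EHD2 (chr19:47713422-47743134, plus strand), the paralog that sits at the neck of caveolae and stabilizes them at the surface, went the other way by a small amount. Its level was 300.5, 284, 278, 261 and 268 CPM in EA.hy926. In HMEC-1 it was 325, 323, 323, 337 and 337 CPM. The lines did not overlap, with the lowest HMEC-1 library above the highest EA.hy926 library, but the difference was only 1.18-fold (log2FC -0.24, SE 0.032, adjusted p = 4.7e-07 from edgeR). Per kilobase of transcript, EHD1 and EHD2 were at 84.4 and 79.4 CPM in EA.hy926 and at 27.8 and 93.8 CPM in HMEC-1. With the length of all annotated exons the ratio of EHD1 to EHD2 was 0.733 and 0.204 in place of 1.06 and 0.296, so EHD2 was above EHD1 in HMEC-1 with either length, while their order in EA.hy926 depended on the length.

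EHD1 and EHD2 showed the widest shift in ratio of the pairs compared and were chosen for display after their values were seen. The 250 bases before the start site of each gene were taken from RefSeq on GRCh38.p14 and are written 5′ to 3′ on the gene's strand. The EHD1 window is chr11:64878622-64878871 on the minus strand and belongs to 1 of 2 starts that RefSeq lists, the one shared with the canonical transcript. The EHD2 window is chr19:47713172-47713421 on the plus strand. Capitals mark the motifs GGGCGG (GC box), CCAAT and TATAAA on either strand. In EHD1 a GC box and a CCAAT lie directly side by side, without a shared base. E-boxes are not marked.
EHD1: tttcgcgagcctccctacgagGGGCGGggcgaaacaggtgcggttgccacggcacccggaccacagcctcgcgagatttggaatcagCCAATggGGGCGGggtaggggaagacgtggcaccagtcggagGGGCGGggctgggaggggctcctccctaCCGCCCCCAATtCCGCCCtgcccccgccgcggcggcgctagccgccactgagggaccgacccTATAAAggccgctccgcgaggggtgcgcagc
EHD2: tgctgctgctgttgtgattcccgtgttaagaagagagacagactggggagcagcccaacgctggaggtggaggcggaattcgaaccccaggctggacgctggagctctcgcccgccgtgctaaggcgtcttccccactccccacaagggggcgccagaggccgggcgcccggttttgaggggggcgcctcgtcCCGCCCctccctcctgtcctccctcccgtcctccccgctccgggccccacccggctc
Both windows are rich in G and C, with 71.6% G and C and 27 CpG sites for EHD1 and 69.6% and 20 for EHD2, where the median of 35116 RefSeq promoter windows of this length was 58% and 11. The EHD1 window held 5 GC boxes, 2 CCAAT and 1 TATAAA, and the EHD2 window held 1 GC box and neither of the others. Of all windows, 42.6% held a GC box, 32% a CCAAT and 10.7% a TATAAA. The AP-1 motif TGANTCA was in neither window and in 6.57% of all, and the E-box CANNTG matched 1 time in EHD1, 0 times in EHD2 and in 61.8% of all windows. A match is a run of letters and does not show that a factor binds.

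MYOF (chr10:93306429-93482334, minus strand) encodes myoferlin, a Ca2+-binding membrane fusion protein that endothelial cells are known to express. It was the most abundant ferlin in both lines, with 1189.6, 1172, 1202, 1167 and 1168 CPM in EA.hy926. In HMEC-1 it had 438, 429.7, 432, 459 and 421 CPM. The groups were widely apart and each was tight, with a difference of 2.71-fold (log2FC 1.44, SE 0.025, adjusted p = 4.3e-22 from edgeR). DYSF (chr2:71453561-71686763, plus strand), the dysferlin gene whose loss causes muscular dystrophy, had 302, 251, 262, 263 and 249 CPM in EA.hy926. Its HMEC-1 values were 101, 99.7, 106, 111 and 106 CPM. One EA.hy926 library, replicate 1, was higher than the other 4, and even the lowest EA.hy926 library was above the highest HMEC-1 library, for a 2.53-fold difference (log2FC 1.34, SE 0.044, adjusted p = 2.2e-17 from edgeR). Exons of another annotated gene cover 6.02% of the exonic bases of DYSF.

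The 2 ferlins kept nearly the same proportion in both lines. MYOF made up 79.6 to 82.3% of the summed ferlin level per kilobase in EA.hy926 against 79.7 to 81.1% in HMEC-1. The log2 ratio of DYSF to MYOF within a library differed by only -0.10 between the lines, a difference that did not pass an exact two-sided permutation test (p = 0.103, adjusted p = 0.103), and the ranges overlapped. Without EA.hy926 replicate 1 the difference was -0.14 with an adjusted p = 0.0175 in the exact permutation test, so that library decided this call. Ferlins are best known from muscle, and of 9 skeletal muscle markers only TTN had enough counts to be tested, at 92 to 113 counts in EA.hy926 against 294 to 358 in HMEC-1. The muscle list summed to 2.71 to 3.36 CPM in EA.hy926, lower than the 7.48 to 9.10 CPM of HMEC-1, and its members MYH1 and MYOG, named after their values were seen, had 0 counts in all 10 libraries.

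Among the role groups of the 34 members, annexins had the highest summed level. It was 3979 to 4181 CPM in EA.hy926 compared with 5113 to 5469.6 CPM in HMEC-1, and 6 of 8 annexins were lower in EA.hy926. All 8 tested annexins differed in adjusted p, as 85.8% of all genes did. Of these 6 were lower and 2 higher in EA.hy926, where 43.3% and 42.6% of all genes were, with a median log2FC of -0.57 where the median of all genes tested was -0.01, and 2 of them, ANXA6 and ANXA3, passed both thresholds. ANXA6 (chr5:151100706-151157815, minus strand), the annexin with a pair of annexin cores that tightens the rim of a wound, had 49.0, 50.9, 46.3, 49.4 and 50.7 CPM in EA.hy926. In HMEC-1 its level was 122, 121, 119, 123 and 119.6 CPM. No library of either line came near the other group, and the level was 2.45-fold lower in EA.hy926 (log2FC -1.29, SE 0.029, adjusted p = 2.7e-20 from edgeR). ANXA3 (chr4:78551747-78610451, plus strand), a Ca2+-dependent phospholipid-binding protein, had 42.0, 44.2, 43.6, 43.5 and 44.4 CPM in EA.hy926. Its values in HMEC-1 were 91.5, 96.0, 96.5, 89.8 and 96.8 CPM. The groups again lay far apart, with a 2.16-fold lower level in EA.hy926 (log2FC -1.11, SE 0.03, adjusted p = 9.4e-19 from edgeR).

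Among the 34 members, the gene with the most counts in both lines was ANXA2 (chr15:60347134-60402883, minus strand). It binds phosphoinositides and actin and works as a complex with S100A10. Its EA.hy926 libraries had 2171, 2265, 2234, 2241 and 2302 CPM. The HMEC-1 libraries had 3120.5, 3316, 3137, 3214 and 3068 CPM. The groups did not overlap, and the difference was 1.41-fold (log2FC -0.50, SE 0.025, adjusted p = 3.8e-14 from edgeR), which is below the fold threshold. ANXA1, an early Ca2+ responder at wounds, was lower as well, at 489 ± 11.7 CPM in EA.hy926 compared with 831 ± 23.4 CPM in HMEC-1 (SD, n = 5; log2FC -0.77, SE 0.025, adjusted p = 3.2e-17 from edgeR).

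ANXA5 and ANXA4 were the 2 annexins that were higher in EA.hy926. ANXA5 (chr4:121667946-121696995, minus strand), which assembles into a lattice around a tear, had 899, 950.3, 930.3, 912 and 962 CPM in EA.hy926. Its HMEC-1 libraries had 645, 669.8, 652, 655 and 634 CPM. Each EA.hy926 library was above each HMEC-1 library, with a 1.43-fold difference (log2FC 0.52, SE 0.025, adjusted p = 2.3e-14 from edgeR). ANXA4, which bends membrane edges, had 95.6 ± 3.81 CPM in EA.hy926 compared with 60.6 ± 1.92 CPM in HMEC-1 (SD, n = 5; log2FC 0.66, SE 0.032, adjusted p = 2.7e-14 from edgeR). ANXA11, an annexin with a long disordered tail that also binds RNA granules, had a log2FC of -0.64 (adjusted p = 2.5e-16 from edgeR). ANXA7, an annexin reported to act with the Ca2+ sensor encoded by PDCD6, differed least of the annexins, at 95.5 ± 3.90 CPM against 106 ± 2.31 CPM (SD, n = 5; log2FC -0.15, SE 0.03, adjusted p = 9.3e-05 from edgeR).

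Within the annexin pool, measured as each gene's share of the summed CPM per kilobase in a library, ANXA2 took 57.3 to 57.9% in EA.hy926 against 62.7 to 63.3% in HMEC-1. ANXA5 took 22.2 to 23.0% in EA.hy926 against 12.1 to 12.4% in HMEC-1, and ANXA1 took 13.5 to 14.3% and 18.2 to 18.4%. The order within the pool depended on the length used. With the length of all annotated exons ANXA5 took 44.8 to 46.1% and ANXA2 27.5 to 27.9% in EA.hy926, and in HMEC-1 ANXA2 took 34.2 to 34.9%, ANXA5 27.9 to 28.2% and ANXA1 23.3 to 23.7%. With either length ANXA5 had the larger share in EA.hy926, and ANXA1 and ANXA2 in HMEC-1. The ratio of ANXA5 to ANXA6 per kilobase was 33.3 in EA.hy926 against 9.50 in HMEC-1. Its log2 values were 5.02, 5.04, 5.15, 5.02 and 5.06 in EA.hy926 against 3.22, 3.29, 3.27, 3.23 and 3.22 in HMEC-1, so the lines were far apart (difference 1.81, exact two-sided permutation test, p = 0.00794, the smallest that 5 libraries against 5 allow, adjusted p = 0.0097 over 11 pairs).

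The 2 S100 partners were both slightly lower in EA.hy926. S100A10, the partner of ANXA2, had 422, 439, 409, 400.0 and 410.3 CPM in EA.hy926 compared with 510.4, 549, 519, 508 and 505 CPM in HMEC-1. The ranges did not overlap, and the difference was 1.25-fold (log2FC -0.32, SE 0.029, adjusted p = 1.4e-09 from edgeR). S100A11, the partner of ANXA1, had 255, 269, 248, 244 and 245 CPM in EA.hy926 compared with 278, 309, 262, 253 and 264 CPM in HMEC-1. Its ranges overlapped, and the small difference passed the test only at log2FC -0.12, SE 0.042, adjusted p = 0.0132 from edgeR. Per kilobase of canonical transcript, the ratio of ANXA1 to S100A11 was 0.780 in EA.hy926 against 1.22 in HMEC-1 (difference in log2 ratio -0.65, exact permutation test, p = 0.00794, adjusted p = 0.0097). The ratio of ANXA2 to S100A10 was 2.33 in EA.hy926 against 2.64 in HMEC-1 (difference -0.18, exact permutation test, p = 0.00794, adjusted p = 0.0097). With the length of all annotated exons these ratios were 0.283 and 0.444 for ANXA1 to S100A11 and 0.471 and 0.535 for ANXA2 to S100A10, so each annexin lay below its partner in both lines, and the difference between the lines does not depend on the length.

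**Figure D2:**
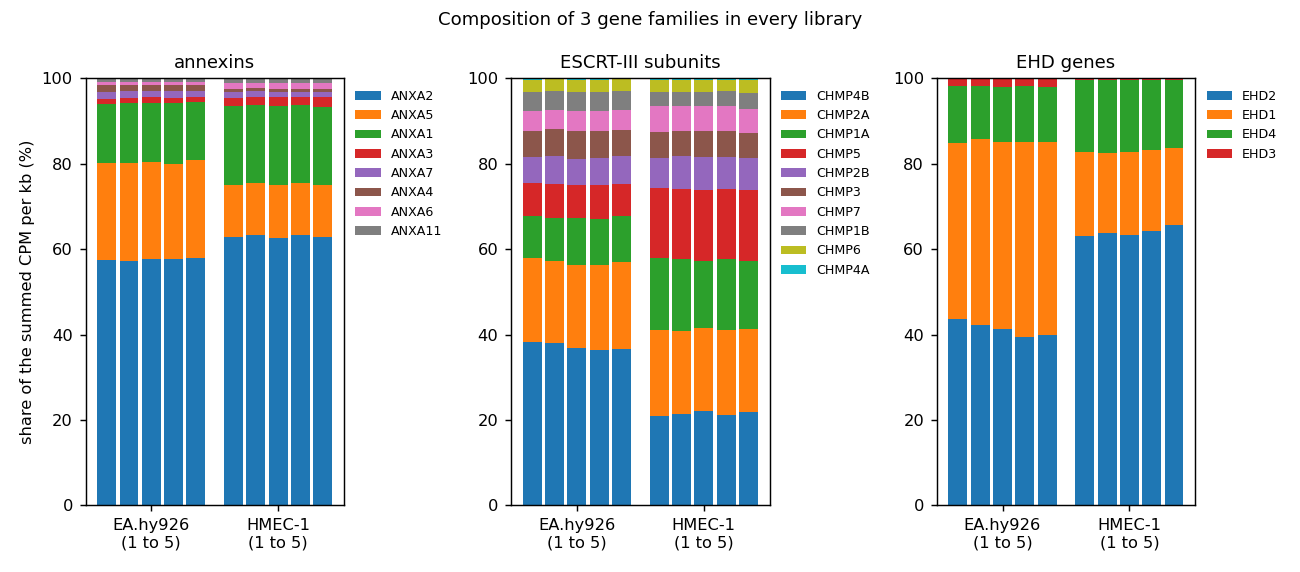
Share of each gene (vertical axis, percent) in the summed CPM per kilobase of the annexin, ESCRT-III and EHD families, with 1 bar per library, replicates 1 to 5 of each line. ANXA5, CHMP4B and EHD1 took larger shares in all EA.hy926 bars than in any HMEC-1 bar, and ANXA1, CHMP5 and EHD2 smaller ones. Genes with a mean share of at most 0.1% are not drawn.

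ESCRT-III subunits, the filament-forming part of the ESCRT machinery, differed in both directions. Of 10 tested subunits, 6 (60%) were higher in EA.hy926 and 2 (20%) lower, next to 42.6% and 43.3% of all genes. The other 2, CHMP4A and CHMP7, did not pass an adjusted p of 0.05, and the median log2FC was 0.25. The 8 that differed are 80% of those tested, below the 85.8% of all genes. With library totals 5 were higher and 3 lower, where 37.0% and 49.6% of all genes were. Only CHMP4B passed both thresholds, or 10% of those tested next to 35.5% of all genes. CHMP4B (chr20:33811348-33854366, plus strand), the main subunit of the filament and the one that ALIX recruits, had 286, 277, 263, 262 and 267 CPM in EA.hy926. Its HMEC-1 libraries had 115, 121, 125, 117 and 124 CPM. The groups did not overlap, and the lowest EA.hy926 library was far above the highest HMEC-1 library, with a fitted difference of 2.25-fold (log2FC 1.17, SE 0.03, adjusted p = 3.6e-19 from edgeR).

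CHMP1B, a late subunit that binds microtubule-severing and VPS4 proteins, had the next highest log2FC of the group at 0.79 (SE 0.036, adjusted p = 1.0e-14 from edgeR), with 62.1 ± 1.12 CPM in EA.hy926 compared with 36.1 ± 2.12 CPM in HMEC-1 (SD, n = 5). CHMP3 and CHMP2A, which polymerize together at the neck, had 0.46 and 0.38, CHMP6, which links ESCRT-II to the filament, had 0.36, and CHMP2B had 0.15 with overlapping CPM ranges. All 4 passed the adjusted p from edgeR, at 9.8e-13, 1.4e-11, 1.2e-06 and 4.9e-04 in that order, but with library totals CHMP2B was at a log2FC of 0.01 and no longer passed. CHMP5, which binds the VPS4 activator VTA1, was lower in EA.hy926, with 67.8, 68.4, 65.6, 66.7 and 65.0 CPM. Its HMEC-1 libraries had 107, 109, 112, 108 and 112 CPM. The ranges were far apart (log2FC -0.72, SE 0.027, adjusted p = 2.3e-16 from edgeR). CHMP1A, the paralog of CHMP1B, was 1.20-fold lower in EA.hy926 (log2FC -0.26, SE 0.028, adjusted p = 1.5e-08 from edgeR).

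CHMP7, which seeds ESCRT-III at the nuclear envelope, was at 71.2 ± 2.39 CPM in EA.hy926 compared with 70.4 ± 2.62 CPM in HMEC-1 (SD, n = 5; log2FC 0.02, SE 0.032, adjusted p = 0.642 from edgeR). When libraries were scaled by their totals alone, which moved the median log2FC of all genes by -0.13, its log2FC was -0.12 and passed the adjusted p, so no direction is given for it. CHMP4A had 31 to 59 counts in EA.hy926 against 40 to 53 in HMEC-1 (log2FC 0.09, SE 0.17, adjusted p = 0.616 from edgeR). Its value is uncertain for another reason too, since 69.2% of its exonic bases also lie in exons of other genes and the strand setting is not given in the sources used here. The same share was 44.9% for VPS4A, 21.5% for CHMP6, 18.2% for CHMP1B, 13.6% for PDCD6 and 12.2% for CHMP3.

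By the deposited counts, CHMP4B made up 99.1 to 99.5% of the CHMP4 pool in EA.hy926 against 98.2 to 98.7% in HMEC-1. These shares are uncertain, since CHMP4A carries the overlap with other genes given above. CHMP4C, known for its role in the timing of cell separation, had 0 to 3 counts in EA.hy926 against 0 to 2 in HMEC-1. In the pool of all ESCRT-III subunits CHMP4B took 36.4 to 38.3% in EA.hy926 against 21.0 to 22.1% in HMEC-1, and CHMP5 took 7.53 to 7.90% and 16.3 to 16.7%. With the length of all annotated exons CHMP4B took 55.1 to 56.9% and 35.4 to 36.7%. The summed level of the subunits was 446 to 466 CPM per kilobase in EA.hy926 against 341 to 354 in HMEC-1.

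All 5 members that recruit or recycle ESCRT-III differed, next to 85.8% of all genes. Of them 3 (60%) were higher and 2 (40%) lower in EA.hy926, next to 42.6% and 43.3% of all genes. None of the 5 passed the fold threshold, where 35.5% of all genes passed both thresholds. PDCD6IP, which encodes ALIX, a scaffold that binds CHMP4 proteins, had 481, 487, 485, 455 and 462 CPM in EA.hy926. Its HMEC-1 libraries had 267, 269, 277, 272 and 274 CPM. The ranges were well apart, with a 1.75-fold difference (log2FC 0.80, SE 0.025, adjusted p = 1.2e-17 from edgeR). PDCD6, which encodes ALG-2, the Ca2+ sensor that brings ALIX to wounds, was 1.49-fold higher (log2FC 0.58, SE 0.038, adjusted p = 4.9e-12 from edgeR), and TSG101, a subunit of ESCRT-I, 1.23-fold (log2FC 0.30, SE 0.029, adjusted p = 4.3e-09 from edgeR). VPS4A and VPS4B, the ATPases that take the filament apart, were lower in EA.hy926 by 1.20-fold and 1.24-fold (log2FC -0.26 and -0.31, adjusted p = 3.7e-08 and 8.2e-10 from edgeR). Among these 5 members, the 3 that recruit the filament were thus higher and both ATPases that disassemble it lower in EA.hy926. The value of VPS4A carries the overlap given above, and the directions of the 5 genes were not tested as a pattern. The 19 further ESCRT genes described below went both ways, 6 higher and 8 lower.

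The lysosomal branch was represented by SMPD1 and SYT7. SMPD1, the gene of acid sphingomyelinase, had 74.4, 69.2, 72.0, 67.5 and 66.7 CPM in EA.hy926. In HMEC-1 it had 51.4, 48.8, 51.1, 49.3 and 49.5 CPM. The groups did not overlap (log2FC 0.48, SE 0.033, adjusted p = 1.1e-11 from edgeR). SYT7, the Ca2+ sensor of lysosome exocytosis, had 9 to 12 counts in EA.hy926 against 5 to 15 in HMEC-1, and no difference was detectable at this depth (log2FC 0.24, SE 0.31, adjusted p = 0.459 from edgeR). TRIM72, a repair protein of striated muscle that is also called MG53, had 1 to 3 counts in EA.hy926 against 0 to 1 in HMEC-1. ANXA8 was at 0 counts throughout EA.hy926 and at 0 to 1 in HMEC-1, and it has a near-identical copy, ANXA8L1, with which reads may be shared.

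Levels of different genes were compared as CPM per kilobase of the canonical transcript. Of the 31 tested members, 7 were above 100 CPM per kilobase in EA.hy926 against 5 in HMEC-1, and the numbers were the same with the length of all annotated exons, but the order was not. On the canonical scale the order in EA.hy926 ran from ANXA2 at 1443 through S100A10 at 620.2, ANXA5 at 568, S100A11 at 448 and ANXA1 at 349 to MYOF at 172 and CHMP4B at 169. In HMEC-1 the same scale gave 2041 for ANXA2, 772 for S100A10, 593 for ANXA1, 486 for S100A11 and 398 for ANXA5, with MYOF at 63.5 and CHMP4B at 75.3. Among 16109 tested genes with a length, ANXA2 ranked 32 in EA.hy926 against 9 in HMEC-1. With the length of all annotated exons the order in EA.hy926 was S100A10 at 411, S100A11 at 388, ANXA5 at 318, ANXA2 at 194, CHMP4B at 169, MYOF at 139 and ANXA1 at 110 CPM per kilobase. In HMEC-1 it was S100A10 at 512, S100A11 at 421, ANXA2 at 274, ANXA5 at 223 and ANXA1 at 187. The place of ANXA2 at the head of the list therefore holds on the canonical scale and not on the other. At the other end, CHMP4A was at 1.26 and 1.19 CPM per kilobase, and SYT7 at 0.0391 and 0.0323.

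**Figure D3:**
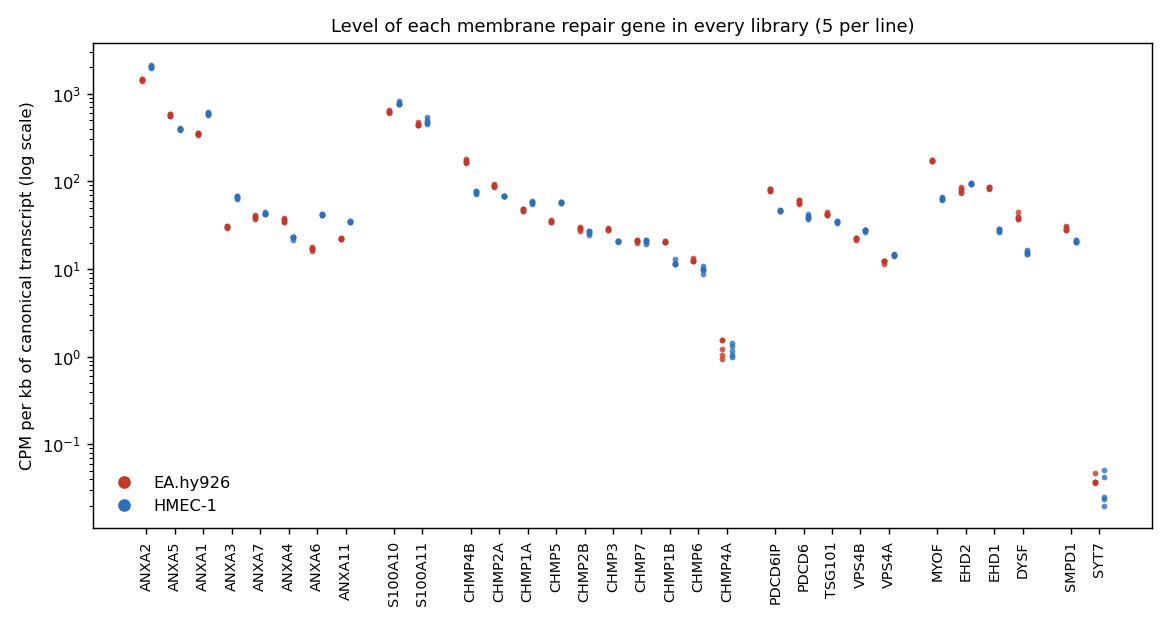
Level of the 31 tested repair genes in each of the 10 libraries, as CPM per kilobase of canonical transcript on a log scale, with EA.hy926 in red and HMEC-1 in blue and each point 1 library. On this scale ANXA2 lies highest at means of 1443 and 2041, SYT7 lowest at 0.0391 and 0.0323, and points of 1 line lie close together except for CHMP4A and SYT7.

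Ratios of 2 members within a library do not depend on how libraries are scaled to each other, and their difference between the lines does not depend on the length used for a gene. Of 12 pairs listed, 11 had enough counts, and 10 of them differed between the lines at an adjusted p under 0.05. The share of other gene pairs that would pass was not computed. Since 85.8% of all genes tested differed between the lines, the count does not set these pairs apart. The widest shift was that of EHD1 to EHD2, with log2 ratios of -0.08, 0.04, 0.09, 0.22 and 0.19 in EA.hy926. In HMEC-1 the log2 ratios were -1.69, -1.77, -1.71, -1.75 and -1.85. The lines were apart by 1.84 on the log2 scale (ratios 1.06 and 0.296, exact permutation test, p = 0.00794, adjusted p = 0.0097). Among ESCRT paralogs, the ratio of CHMP1A to CHMP1B was 2.33 in EA.hy926 against 4.83 in HMEC-1 (difference -1.05), and the ratio of CHMP2A to CHMP2B was 3.09 and 2.62 (difference 0.24), both with an exact permutation p = 0.00794 and adjusted p = 0.0097. With the length of all annotated exons CHMP1A to CHMP1B was 0.756 and 1.57, so which of the pair was higher in EA.hy926 depended on the length. PDCD6 to PDCD6IP differed by -0.23 and ANXA1 to ANXA2 by -0.27 on the log2 scale, with the same p-values in the exact permutation test.

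The ATPase pair showed the smallest shift. VPS4A to VPS4B had a ratio of 0.545 in EA.hy926 against 0.526 in HMEC-1, with overlapping ranges (difference 0.05, exact permutation test, p = 0.0397, adjusted p = 0.0437), and the adjusted p was over 0.05 in 9 of the 10 fits that left out 1 library. CHMP4A to CHMP4B differed by -1.10, where CHMP4A carries the overlap described above.

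**Figure D4:**
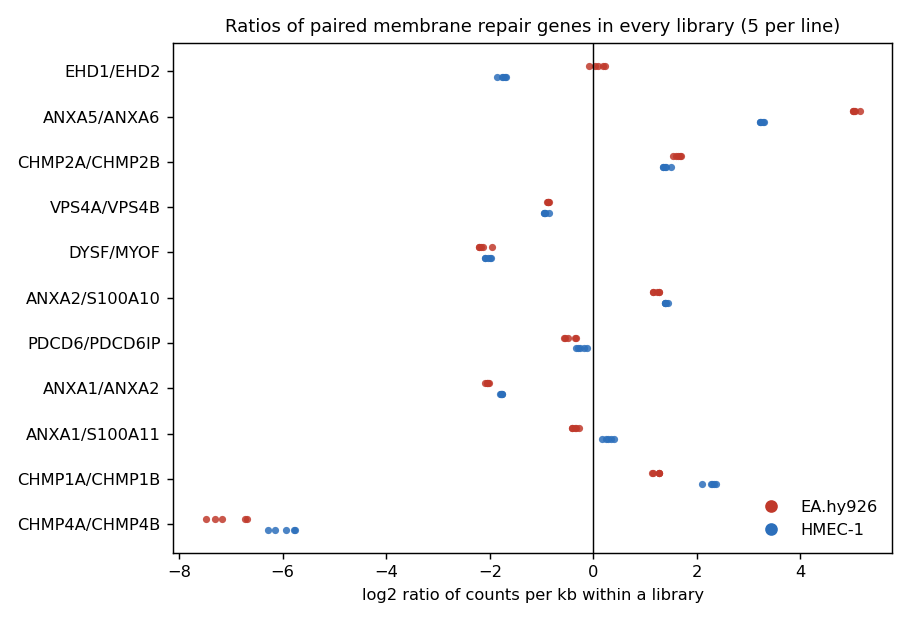
Log2 ratio of the counts per kilobase of 2 repair genes within a library (horizontal axis) for the 11 pairs tested, with 1 point per library, EA.hy926 in red and HMEC-1 in blue. The points of the lines are furthest apart for EHD1/EHD2 and ANXA5/ANXA6 and overlap for VPS4A/VPS4B and DYSF/MYOF.

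Another 67 genes of the repair process were taken from lists by role. Of these 58 were tested, 46 (79.3%) differed in adjusted p, 24 with higher and 22 with lower levels in EA.hy926. Of the tested genes 10 (17.2%) passed both thresholds, 6 higher and 4 lower, next to the backgrounds of 85.8% and 35.5%. The split by direction depended on the scaling, since with library totals 50 differed, 19 higher and 31 lower, where 37.0% of all genes were higher and 49.6% lower. Of 19 further ESCRT genes, 6 were higher and 8 lower (5 and 11 with library totals), and UBAP1, a subunit of ESCRT-I, with 25.3 CPM in EA.hy926 compared with 70.1 CPM in HMEC-1 (log2FC -1.47, SE 0.033, adjusted p = 2.5e-20 from edgeR), and CEP55, which brings ESCRT proteins to the midbody, with 144 CPM and 293 CPM (log2FC -1.03, SE 0.026, adjusted p = 1.9e-19 from edgeR), passed both thresholds. UBAP1 was thus 2.77-fold lower in EA.hy926 while TSG101, its partner in ESCRT-I, was 1.23-fold higher.

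EHD3, the closest relative of EHD1, had 17.7, 16.8, 17.8, 16.1 and 17.9 CPM in EA.hy926. In HMEC-1 it had 2.02, 2.57, 2.69, 2.23 and 2.41 CPM. The 7.18-fold difference was larger than that of any listed member (log2FC 2.84, SE 0.073, adjusted p = 3.0e-19 from edgeR), but EHD3 made up only 1.77 to 1.93% of the EHD pool in EA.hy926 against 0.286 to 0.383% in HMEC-1. In that pool EHD1 took 41.3 to 45.7% in EA.hy926 against 18.2 to 19.6% in HMEC-1, and EHD2 took 39.3 to 43.6% and 63.1 to 65.6%.

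Caveolae, the surface pits whose necks EHD2 encircles, had 7 tested genes, 5 of them higher in EA.hy926 while 2 were lower, next to 42.6% and 43.3% of all genes. With library totals 2 were higher and 2 lower, and CAVIN2, CAVIN3 and CAVIN4, named for this loss, no longer passed. CAV1, the main caveolin of endothelium, had 2321 CPM in EA.hy926 compared with 1079 CPM in HMEC-1 (log2FC 1.10, SE 0.024, adjusted p = 2.6e-20 from edgeR), and with library totals its log2FC was 0.97 and below the fold threshold. PACSIN2, a membrane-bending partner of EHD2, was lower in EA.hy926, at 62.4 CPM against 147 CPM (log2FC -1.24, SE 0.036, adjusted p = 3.6e-18 from edgeR). EHD2 and PACSIN2 were thus lower and CAV1 higher in the same line.

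The genes of lysosome docking and fusion were mostly lower in EA.hy926, 8 of 10 tested with 1 higher, next to 43.3% and 42.6% of all genes, at a median log2FC of -0.46, whereas SMPD1 was higher. The 1 that was higher was LAMP2, a lysosomal membrane protein, at 616 ± 11.1 CPM (SD, n = 5) for EA.hy926 libraries and 239.6 ± 3.07 CPM (SD, n = 5) for HMEC-1. The lines did not overlap (2.57-fold, log2FC 1.36, SE 0.023, adjusted p = 2.3e-22 from edgeR). All 5 tested genes of the calpain list were higher in EA.hy926, as 42.6% of all genes were, with log2FC from 0.17 to 1.36. With library totals 4 were, and CAPNS1, named for this loss, was at 0.04. The list includes CAST, named here because it encodes calpastatin, an inhibitor of calpains. It leaves out CAPN10 and CAPNS2, which the paper reports as lower and higher in EA.hy926, so the shared direction holds for the listed genes only. CAPN2, a Ca2+-activated protease that cuts the cytoskeleton under a wound, had 1290.2 CPM in EA.hy926 compared with 503 CPM in HMEC-1 (log2FC 1.36, SE 0.023, adjusted p = 2.4e-22 from edgeR).

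Copines, Ca2+-dependent phospholipid-binding proteins, held the largest difference of the further genes. Of 6 tested, 2 were higher and 3 lower in EA.hy926 (2 and 4 with library totals). CPNE8 had 57.0, 56.0, 54.7, 53.9 and 55.4 CPM in EA.hy926. In HMEC-1 it had 4.71, 4.44, 4.19, 3.68 and 4.95 CPM. The difference was 12.7-fold (log2FC 3.66, SE 0.054, adjusted p = 2.4e-23 from edgeR). CPNE1 was 2.81-fold higher (log2FC 1.49, SE 0.028, adjusted p = 1.6e-21 from edgeR), and CPNE5, at 1.28 CPM in EA.hy926 compared with 3.17 CPM in HMEC-1, was 2.47-fold lower (log2FC -1.30, SE 0.14, adjusted p = 1.2e-08 from edgeR). Of the 4 enzymes of sphingomyelin and ceramide other than SMPD1, 2 were higher and 2 did not pass (2 higher and 1 lower with library totals), and of the 5 tested further annexin and S100 genes 2 were higher, 1 was lower and 2 did not pass (2 higher and 3 lower with library totals).

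**Figure D5:**
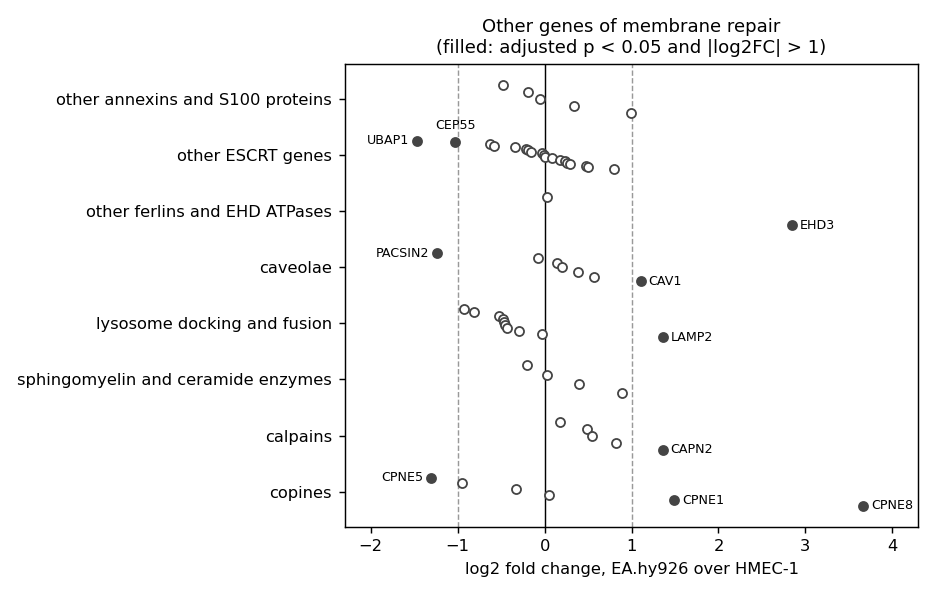
Log2 fold change (EA.hy926 over HMEC-1, horizontal axis) of the 58 tested further repair genes, by list, with filled and named points for the 10 genes past both thresholds. CPNE8 at 3.66 and EHD3 at 2.84 lie furthest to the right, and UBAP1 at -1.47 furthest to the left.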

How the data were processed

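Poly(A) RNA of 5 EA.hy926 and 5 HMEC-1 cultures was sequenced on an Illumina NovaSeq 6000. Groups and replicate numbers came from the sample labels. The authors aligned the reads to GRCh38, with HISAT2 per the submitters' processing notes, and deposited raw counts per gene. The notes name featureCounts as the counter, whereas the methods name HTSeq. The annotation release and the strand setting are not given in the sources used here. Genes that overlap others or have near-identical copies are therefore uncertain.

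Identifiers were matched to GENCODE 44 (56434 of 60448 genes). The 34 genes, the other lists and the tests were chosen with earlier results of these data known. Named genes were all 34 members, up to 3 of each other list with the largest log2FC among those past both thresholds with at least 10 counts in each library of a line, and PECAM1, CDH5, EPCAM and KRT18. The exceptions are stated where they are named.

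Low genes were removed by filterByExpr (10 counts, and 15 in total), libraries were scaled by TMM factors (0.9425 to 0.9638 for EA.hy926, 1.04 to 1.052 for HMEC-1), and the lines were compared with the quasi-likelihood test of edgeR 4.0.16 in R 4.3.3, with Benjamini-Hochberg adjustment over all 16310 genes tested. Thresholds were 0.05 for the adjusted p and 1 for the size of the log2FC. The standard error of a log2FC is its size over the root of F. CPM used the TMM-scaled library size, and levels per kilobase used the canonical transcript. Paired genes were compared by their log2 ratio of counts per kilobase, with 0.5 added to each count, in an exact two-sided permutation test (scipy 1.17.1) with adjustment over the 11 pairs tested. Exon overlaps on either strand came from bedtools 2.31.1. Total counts were 34846046 to 39899324 for EA.hy926 and 33391640 to 43877224 for HMEC-1, and the floors in CPM cover counting error only. The alternatives were DESeq2 1.42.0, limma-voom (limma 3.58.1), RLE factors, library totals, other filters, the replicate number as a block, 5 added to each count in ratios, and each library left out. The overlap filter, the length of all annotated exons and the counts per list with library totals were alternatives added after seeing the data. Scripts were tested on simulated data.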

Additional observations from a re-analysis of the deposited data

Results flagged for a closer look

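In 111 groups of 5 libraries, made by each named gene or pair in each line, 8 had 1 library set apart from the other 4 by Dixon's criterion, where chance alone gives about 1 in 20 groups. HMEC-1 replicate 5 was that library in 3 of them. It was lowest for ANXA4, at 57.25 CPM with the others at 61.1 to 62.13, highest for CHMP1B, at 39.8 CPM with the others at 34.82 to 35.77, and lowest for CAPN2, at 482.9 CPM with the others at 504.9 to 512.6. In EA.hy926, replicate 5 was lowest for VPS4A, at 47.24 CPM with the others at 50.33 to 50.4. DYSF was highest in EA.hy926 replicate 1, at 301.8 CPM with the others at 248.9 to 262.6. SYT7 was highest in EA.hy926 replicate 3, at 0.3417 CPM with the others at 0.2602 to 0.2712, which is a matter of 9 to 12 counts.

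Among the paired genes, the log2 ratio of ANXA2 to S100A10 was highest in HMEC-1 replicate 4, at 1.448 with the others at 1.383 to 1.401, and that of VPS4A to VPS4B was highest in HMEC-1 replicate 1, at -0.8597 with the others at -0.9558 to -0.9306. In the fits that left out 1 library, the adjusted p of ANXA4, CHMP1B, CAPN2, VPS4A and DYSF stayed under 0.05.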

How the results depend on the processing

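The same 6 repair genes passed both thresholds with DESeq2, limma-voom, RLE factors, library totals, either other filter, the replicate block and each library left out, and 6 passed when members with over 10% of their exonic bases under other genes were left out. With each library left out, 6 members passed both thresholds and 28 passed the adjusted p in all 10 fits. Over all genes, 5784 passed both thresholds, and 9312 of 33071 without a filter, 3255 of 13107 with at least 10 counts in every library and 5945 to 6000 with 1 library left out did so. Fewer or more genes were tested under these filters. Counts per list with library totals and levels with the length of all annotated exons stand beside the results. With library totals the split of all genes past both thresholds was 2809 higher and 3085 lower, CHMP7 gained and CHMP2B lost the adjusted p, and CAV1 fell below the fold threshold at 0.97.

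CHMP4A had a log2FC of -0.0396 with library totals. CHMP7 had -0.12 with library totals, -0.0045 without a filter, -0.0011 without HMEC-1 replicate 4 and -0.0189 without HMEC-1 replicate 5, and -0.0189 to 0.0404 over all fits without 1 library. The cause was not tested. Of the 11 ratio pairs, 9 to 10 passed with 1 library left out. With the replicate block, a sign-flip permutation over 5 pairs of the same number, 0 passed, since its smallest p is 0.0625. The numbers did not pair the libraries, with correlations of deviations from -0.0228 to 0.0389 and 2 of 5 EA.hy926 libraries correlating best with their own number. The block moved the count over all genes to 5786. Depth limits SYT7, CHMP4A and the 3 members with at most 3 counts.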
